A study of Homo sapiens with 2 samples.

Results

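The 78 genes described here carry the symbols of mitochondrial ribosomal proteins, MRPL for the large and MRPS for the small subunit. They were taken from the 19029 genes of the deposited expression table by their symbol, leaving out rows described as pseudogenes. By the place of the protein in the ribosome, 51 belong to the large subunit and 26 to the small subunit. MRPS30 and MRPS18A were counted with the large subunit, where their proteins sit in spite of their symbols. The remaining one, MRPS36, has the RefSeq symbol KGD4 and encodes a subunit of the 2-oxoglutarate dehydrogenase complex.

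Mitochondria keep a ribosome of their own, which translates the few messenger RNAs of the mitochondrial genome, all of them for membrane subunits of the respiratory chain and the ATP synthase. Its ribosomal RNAs are made inside the organelle, while all of its proteins are encoded in the nucleus, translated in the cytosol and imported. Many descend from proteins of the bacterial ribosome and others are found only in mitochondria.

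The study compared BT549 cells overexpressing SNHG15 with BT549 cells carrying the vector control, which the labels call pcIp2. BT549 is an established human breast cancer line of mesenchymal character, and SNHG15 is a host gene of small nucleolar RNAs whose spliced product is a long non-coding RNA. Total RNA was sequenced from 1 library per group, and both cultures grew in DMEM with serum. Whether the overexpressing cells are 1 clone or a pool, and when they were harvested, the labels do not say.

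The library of the SNHG15 cells held 16570496 counts and that of the vector cells 20799017. SNHG15 itself had 34450 counts in SNHG15 cells and 466 in vector cells, or 1997 against 23.3 CPM (counts scaled to library size), an 85.6-fold difference. The mesenchymal markers VIM (1998 CPM in SNHG15 cells, 1993 CPM in vector cells) and CD44 (520 and 445 CPM) were abundant in both. SPARC was 1.78-fold higher in SNHG15 cells, and CAV1 and ZEB1 had ratios of 0.518 and 0.590. The epithelial markers CDH1 (12 counts in SNHG15 cells, 11 in vector cells) and KRT19 (0 and 23 counts) were at or near 0. GATA3 had 65.2 CPM in SNHG15 cells and 58.6 CPM in vector cells. The part of these marker values in the results on the 78 genes was not tested.

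All 78 genes were expressed in both libraries. Together they took 106614 counts in SNHG15 cells, 0.643% of the library, with an exact 95% binomial interval of 0.640% to 0.647%. In vector cells they took 135548 counts, or 0.652% with an interval of 0.648% to 0.655%. After scaling by trimmed mean of M values (TMM), the summed level was 6179 CPM in SNHG15 cells and 6786 CPM in vector cells, a ratio of 0.911 (95% counting interval 0.903 to 0.918). That ratio lay nearer 1, at 0.987, when library totals were used instead, and without MRPL37, the member with the most counts, it was 0.872. In RNA from whole cultures, fewer cells of a kind and less RNA per cell cannot be told apart.

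In the FPKM values of the authors' deposited table, which divide counts by a length per gene, the 78 genes spanned a wide range. The highest value was 345 times the lowest in SNHG15 cells and 689 times in vector cells. The level ran from 0.659 to 227.5 FPKM in SNHG15 cells with a median of 12.6, and from 0.410 to 282.5 FPKM in vector cells with a median of 11.1. MRPL41, a mitochondria-specific protein of the large subunit, stood first in both, with 227.5 FPKM in SNHG15 cells and 282.5 FPKM in vector cells. It was followed in SNHG15 cells by MRPL12 (184.7 FPKM, against 184.5 in vector cells), MRPL14 (180.7 against 209.7), MRPL37 (177.4 against 107.2) and MRPL24 (87.0 against 99.1).

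At the low end stood MRPL42, with 0.659 FPKM in SNHG15 cells and 0.410 FPKM in vector cells. MRPL1 had 1.28 FPKM in SNHG15 cells against 0.601 in vector cells, MRPL48 had 1.72 against 1.35, MRPL19 had 1.78 against 1.84 and MRPS22 had 1.86 against 1.08. The order of the members hardly differed between the libraries, with a Spearman coefficient of 0.974 over the 78 genes, which share one length per gene in both libraries. These ranks also rest on that length: the deposited FPKM imply 21706 bases for MRPL42, whose exons cover 16393 bases in GENCODE 29, against 959 bases for MRPL14. For MRPL55 they imply 10309 bases, while its exons cover 1886. By CPM, MRPL42 (13.7 in SNHG15 cells, 9.26 in vector cells) stood above MRPL1 (4.23 and 2.15).

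**Figure D1:**
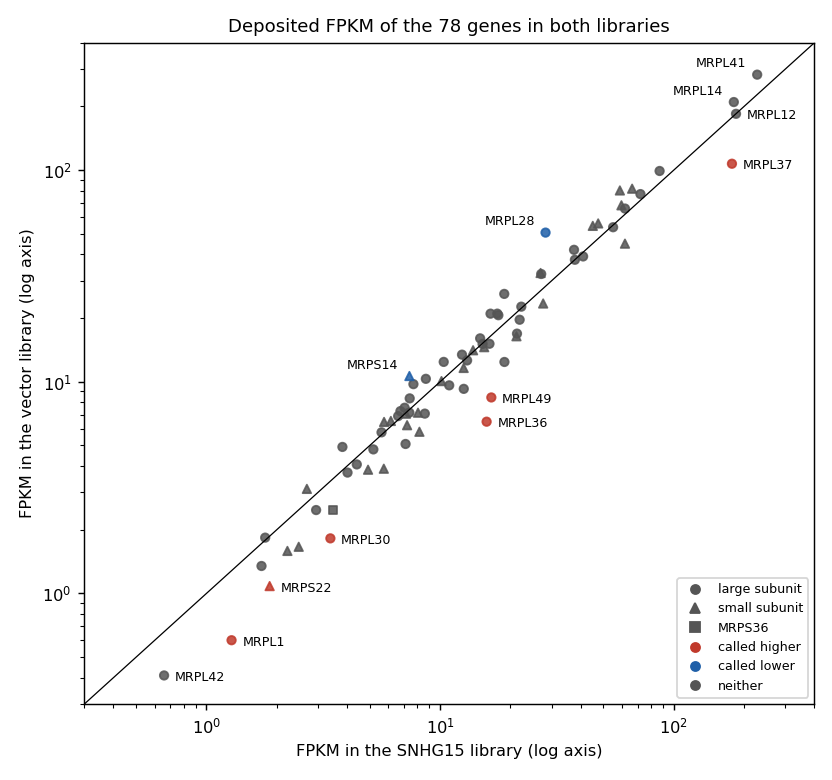
Deposited FPKM of the 78 genes in the SNHG15 library (x axis, log scale) and in the vector library (y axis, log scale), 1 point per gene and the diagonal marking equal FPKM. MRPL41, MRPL12, MRPL14 and MRPL37 lead in both libraries, MRPL42 is lowest in both, and the genes called higher (red) and lower (blue) lie off the diagonal on opposite sides.

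To ask whether single members differed, the scaled level of each gene in SNHG15 cells was divided by that in vector cells, with an exact 95% interval from its counts. A gene was called higher or lower where this interval excluded 1 and the ratio reached 1.5-fold. With 1 library per group there is no replicate check and no p-value. The intervals cover counting error only, so spread between cultures is not in them, and a call compares these libraries.

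Of the 78 genes, 6 were higher in SNHG15 cells, 2 were lower and 70 were neither, so 10.3% were called. Among the 12934 genes compared, those that averaged 1 CPM or more, the same rule called 25.5%, with 13.3% higher and 12.2% lower. Within the range of mean CPM that the 78 genes span, it called 23.5% of 10435 genes. No member had its whole interval beyond 2-fold, against 4.65% of all genes compared. Point ratios between 0.8 and 1.25 were found for 43 members, 55.1%, against 46.8% of all genes compared.

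The 6 genes called higher were MRPL36, MRPL1, MRPL49, MRPL30 and MRPL37 of the large subunit and MRPS22 of the small subunit. MRPL36 (chr5:1798386-1801366, hg38, minus strand) encodes the mitochondrial form of bacterial L36, a very small protein of the large subunit. It had 710 counts in SNHG15 cells and 365 in vector cells, or 41.1 CPM against 18.3 CPM, a ratio of 2.25 (95% interval 1.98 to 2.56), the highest of the 78. MRPL1 (chr4:77862520-77952790, plus strand), whose bacterial homologue forms the mobile L1 stalk at the tRNA exit side, was among the least abundant members. It had 73 counts in SNHG15 cells and 43 in vector cells, or 4.23 CPM against 2.15 CPM, and its ratio of 1.97 had the widest interval of the called genes, 1.33 to 2.94.

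MRPL49 (chr11:65122183-65127371, plus strand), a large-subunit protein found only in mitochondrial ribosomes, had 2810 counts in SNHG15 cells and 1795 in vector cells. That was 162.9 CPM against 89.9 CPM, a ratio of 1.81 (1.71 to 1.92). Its locus overlaps FAU and SYVN1 on the opposite strand. FAU, which encodes the cytosolic ribosomal protein eS30 fused to a ubiquitin-like protein, had 9024 counts in SNHG15 cells and 15706 in vector cells, a ratio of 0.665. The labels do not say whether the counting used strand, so reads of such overlapping pairs cannot be told apart. MRPL49 and FAU pooled had a ratio of 0.783.

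MRPL30 (chr2:99181079-99197626, plus strand), the homologue of bacterial L30, had 337 counts in SNHG15 cells and 227 in vector cells, a ratio of 1.72 (1.45 to 2.04). Another gene model of the same strand, AC079447.1, overlaps it, with 54 counts in SNHG15 cells and 32 in vector cells. MRPS22 (chr3:139005806-139357223, plus strand), a mitochondria-specific protein of the small subunit in which mutations cause mitochondrial disease, had 266 counts in SNHG15 cells and 194 in vector cells. Its ratio was 1.59 (1.31 to 1.92), and COPB2, which overlaps it on the opposite strand, had a ratio of 1.51. MRPL37 (chr1:54184041-54225464, plus strand), a mitochondria-specific large-subunit protein, had the most counts of all members in both libraries. It had 10470 counts in SNHG15 cells and 7940 in vector cells, or 606.8 CPM against 397.5 CPM, a ratio of 1.53 (1.48 to 1.57). MRPL37 made up 9.82% of the members' counts in SNHG15 cells and 5.86% in vector cells.

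The 2 genes called lower are both among the 45 of the 78 members with a bacterial homologue. With the GC trend removed, 1 mitochondria-specific gene was also called lower. MRPL28 (chr16:367384-370527, minus strand), the homologue of bacterial L28 in the large subunit, had 3062 counts in SNHG15 cells and 6890 in vector cells. That was 177.5 CPM against 344.9 CPM, a ratio of 0.514 (0.493 to 0.537), the lowest of the 78. MRPS14 (chr1:175010789-175023425, minus strand), the homologue of bacterial S14 in the head of the small subunit, had 417 counts in SNHG15 cells and 754 in vector cells. Its ratio was 0.640 (0.567 to 0.723). CACYBP, which overlaps MRPS14 on the opposite strand, had 895 counts in SNHG15 cells and 822 in vector cells, and both pooled had a ratio of 0.964.

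Just outside the threshold stood MRPL4, the homologue of bacterial L4, with 2399 counts in SNHG15 cells and 4162 in vector cells, a ratio of 0.667 (0.634 to 0.702). MRPL42, mitochondria-specific, had 237 counts in SNHG15 cells and 185 in vector cells, a ratio of 1.48 (1.22 to 1.81). MRPL36, MRPL49 and MRPL1 were called under every scaling, filter and centring in which they were compared. MRPL37 was not called with DESeq2 size factors (1.48) and MRPS14 not with library totals (0.694), while MRPL4 was called with DESeq2 size factors and MRPL42 with library totals. With the trend over GC content removed, MRPS22 (1.41) and MRPL30 were not called. With ratios centred on those of neighbouring genes, MRPL28 (0.757), MRPL37 (1.29) and MRPS22 (1.13) were not called.

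**Figure D2:**
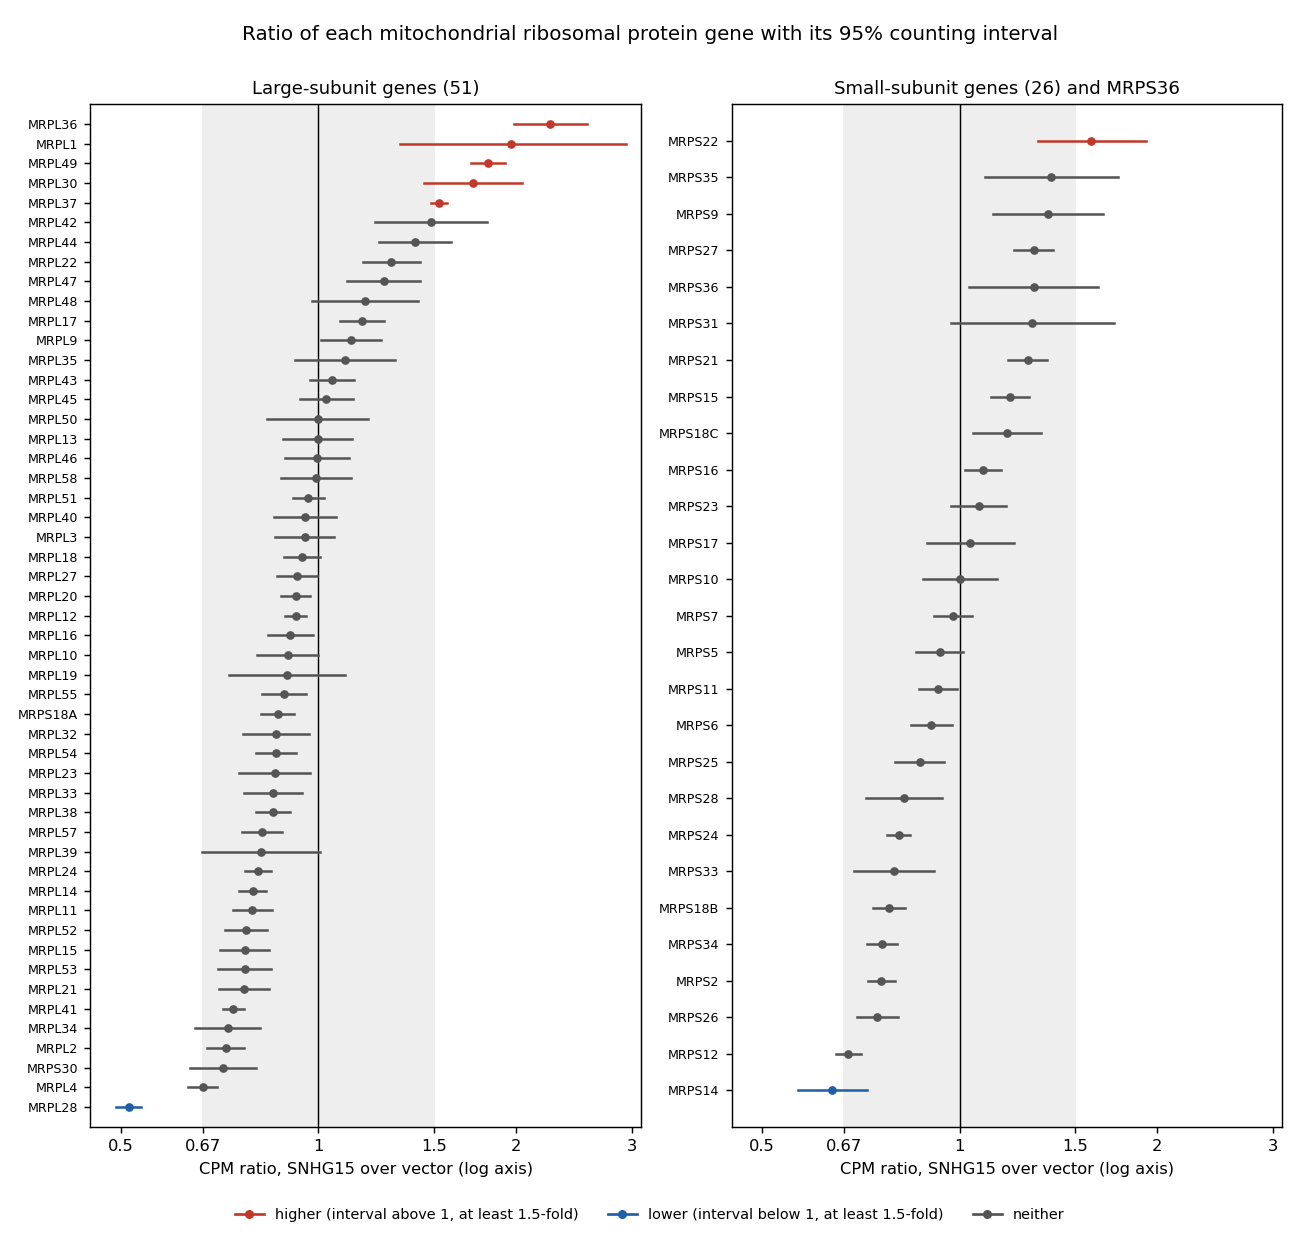
Ratio of the TMM-scaled level in SNHG15 cells over vector cells (x axis, log scale) for each of the 78 genes, large subunit at left and small subunit with MRPS36 at right. Points are ratios from 1 library per group, bars are 95% counting intervals, and the grey band marks ratios within 1.5-fold. MRPL36 at 2.25 and MRPL28 at 0.514 are the ends of the range.

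Smaller differences were more often downward than upward under this scaling. The interval lay above 1 for 20 members, 25.6%, against 30.7% of all genes compared, and below 1 for 38 members, 48.7%, against 31.3% of all genes. It held 1 for the other 20. This lean depends on the scaling, since with library totals 25 members lay above 1 and 24 below, against 40.02% and 24.38% of all genes. The median log2 ratio of the members was -0.11 under TMM scaling, -0.15 with DESeq2 size factors and 0.01 with library totals, against 0.02, -0.03 and 0.13 for all genes compared. Library totals shifted the median of all genes by 0.12 on the log2 scale. The members' median minus that of all genes was -0.12 under each of these scalings. A change of scaling shifts every log2 ratio by nearly the same amount, so this difference could hardly move and is no check of the lean. The interquartile range of the members was -0.31 to 0.21, and that of all genes compared -0.33 to 0.36.

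Both subunits gave similar medians. The 51 large-subunit genes had a median log2 ratio of -0.12 with 5 higher and 1 lower, and the 26 small-subunit genes had -0.07 with 1 higher and 1 lower. The interval lay above 1 for 11 large-subunit and 8 small-subunit genes, and below 1 for 26 and 12. Of all genes compared 30.7% lay above 1 and 31.3% below, and 13.3% were called higher and 12.2% lower. Summed levels were 4234 CPM in SNHG15 cells and 4586 CPM in vector cells for the large subunit, a ratio of 0.923, and 1935 and 2192 CPM for the small subunit, a ratio of 0.883.

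By descent, the 45 genes with a bacterial homologue had a median log2 ratio of -0.12 under TMM scaling, with 3 higher and 2 lower, and a summed-level ratio of 0.850 (0.841 to 0.859). The 29 mitochondria-specific genes had a median of -0.01, with 3 higher and 0 lower, and a summed-level ratio of 1.03 (1.01 to 1.04). MRPL37 alone gave 606.8 CPM in SNHG15 cells and 397.5 CPM in vector cells to sums of 2368 and 2308 CPM. Without it, an alternative added after seeing the data, the ratio was 0.922 (0.908 to 0.936). The median differed in the same direction within each subunit: -0.15 for 30 bacterial homologues and -0.03 for 20 mitochondria-specific genes of the large subunit, and -0.10 for 15 and 0.10 for 9 of the small subunit. Of all genes compared 13.3% were called higher and 12.2% lower. With the GC trend removed, 2 bacterial homologues were higher and 2 lower, and 2 mitochondria-specific genes were higher and 1 lower. The difference between the classes was not tested, since 1 library per group gives no error for it.

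In the stalk and the factor-binding region of the large subunit, where elongation factors dock, all 5 genes had intervals below 1 under TMM scaling, and 0 of 5 were called. Intervals lay below 1 for 48.7% of the 78 genes and for 31.3% of all genes compared. MRPL12, MRPL54, MRPL53 and MRPL10 were among the 26 members of highest GC content, and MRPL11 was not. Of those 26 members 22 lay below 1, and of all genes of that GC range 52.4% did. The part of GC content in the ratios of this group was not tested. MRPL12, the stalk protein that contacts elongation factors, had 5025 counts in SNHG15 cells and 6301 in vector cells, a ratio of 0.923 (0.889 to 0.958). MRPL10, which anchors MRPL12 to the ribosome, had a ratio of 0.898 (0.808 to 0.997). MRPL11, at the base of the stalk, had 1460 counts in SNHG15 cells and 2129 in vector cells, a ratio of 0.794 (0.742 to 0.849). The mitochondria-specific neighbours MRPL53 and MRPL54 had ratios of 0.772 and 0.862. The median log2 ratio of the group was -0.21. With library totals the ratios were 1.001 for MRPL12, 0.973 for MRPL10, 0.935 for MRPL54, 0.861 for MRPL11 and 0.837 for MRPL53.

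Around the mouth of the polypeptide exit tunnel, where new proteins leave towards the inner membrane, the 6 genes split. MRPL22 had 842 counts in SNHG15 cells and 755 in vector cells, a ratio of 1.29 (1.17 to 1.43). MRPL47 and MRPL17, the homologues of bacterial L29 and L17, had ratios of 1.26 and 1.17. MRPL24 had 3149 counts in SNHG15 cells and 4502 in vector cells, a ratio of 0.810 (0.773 to 0.848), and MRPL23 had 0.859. MRPL45, the protein that ties the ribosome to the inner membrane, had 876 counts in SNHG15 cells and 986 in vector cells, a ratio of 1.03 whose interval held 1. The group had 3 intervals above 1, 2 below and a median log2 ratio of 0.13, and 0 of 6 were called. Of all genes compared 30.7% lay above 1 and 31.3% below, and 25.5% were called.

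The 9 genes of the central protuberance, the knob on top of the large subunit that faces the small one, had 0 intervals above 1 and 4 below, with a median log2 ratio of -0.08. Of the 78 genes 48.7% lay below 1 and 25.6% above, and of all genes compared 31.3% and 30.7%. The lowest were MRPL52 (1209 counts in SNHG15 cells, 1803 in vector cells, ratio 0.776), MRPL57 (0.822), MRPL38 (0.852) and MRPL27 (0.929). MRPL58, a peptidyl-tRNA hydrolase built into the ribosome, had 486 counts in SNHG15 cells and 567 in vector cells, a ratio of 0.992. MRPL46 (0.995), MRPL40 (0.954), MRPL18 (0.944) and MRPL48 (1.18) also had intervals that held 1.

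On the small subunit, the genes of the messenger entry and the decoding centre had a median log2 ratio of -0.31, with 0 of 3 called, against 25.5% of all genes compared. MRPS12, which lies at the decoding centre, had 3158 counts in SNHG15 cells and 5403 in vector cells, a ratio of 0.677 (0.647 to 0.707). It was called lower with DESeq2 size factors only among the scalings. MRPS24 had 3963 counts in SNHG15 cells and 5680 in vector cells, a ratio of 0.808 (0.775 to 0.841), and MRPS5 had 0.932 with an interval that held 1. The readthrough model URGCP-MRPS24 overlaps MRPS24, with 17 counts in SNHG15 cells and 4 in vector cells.

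Human mitochondria have 3 proteins related to bacterial S18, and their genes differed in ratio. MRPS18C had 568 counts in SNHG15 cells and 557 in vector cells, a ratio of 1.18 (1.05 to 1.33). MRPS18A, whose protein sits in the large subunit, had 2048 counts in SNHG15 cells and 2735 in vector cells, a ratio of 0.867 (0.818 to 0.918). MRPS18B had 2074 counts in SNHG15 cells and 3070 in vector cells, a ratio of 0.782 (0.739 to 0.827). None of the 3 reached 1.5-fold.

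Among other small-subunit genes the highest ratios after MRPS22 were those of MRPS35 (162 counts in SNHG15 cells, 136 in vector cells, ratio 1.38), MRPS9 (1.36), MRPS27 (1722 and 1538 counts, 1.30), and MRPS31 (1.29). MRPS27 is a pentatricopeptide repeat protein, a class that binds RNA. The lowest after MRPS14 and MRPS12 were MRPS26 (1239 counts in SNHG15 cells, 1915 in vector cells, ratio 0.749), MRPS2 (0.760) and MRPS34 (0.762). In the large subunit the lowest after MRPL28 and MRPL4 were MRPS30 (0.716), MRPL2 (1485 counts in SNHG15 cells, 2379 in vector cells, ratio 0.723) and MRPL34 (0.728). MRPL2 is the homologue of bacterial L2, next to the peptidyl transferase centre. MRPS35, MRPS9, MRPS27, MRPS31, MRPS26, MRPS2, MRPS34, MRPS30, MRPL2 and MRPL34 all stayed within 1.5-fold. MRPS36, outside the ribosome, had 169 counts in SNHG15 cells and 151 in vector cells, a ratio of 1.30 (1.03 to 1.62).

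The start regions of these genes were read from RefSeq promoters on GRCh38.p14, 250 bases before to 50 bases after each start, which matched 70 of the 78 genes with 86 promoters. Letters of 3 factors known to act on nuclear genes for mitochondria were searched on both strands: AAGATGGC (YY1 type), CCGGAAGT (ETS type, bound by GABPA) and CATGCGCA or the longer palindromic NRF1 element (NRF1 type, which may overlap each other). YY1-type letters stood in 26.7% of the members' promoters, against 2.89% of all 35116 promoters. ETS-type letters stood in 16.3% against 4.14%, NRF1-type letters in 5.81% against 2.63%, and any of these in 38.4% against 9.01%. Counted per gene against 15843 protein-coding genes, the shares were 30% against 4.66% for YY1-type, 17.1% against 6.97% for ETS-type and 7.14% against 4.06% for NRF1-type letters. A match is a description of letters, not of binding.

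The regions printed here belong to called genes and are shown with any match in capitals. MRPL36 and MRPL49 were called higher and hold YY1-type letters, and MRPS22 was called higher and holds the ETS-type letters 2 times. The other genes called higher, MRPL1, MRPL30 and MRPL37, hold none of these letters, and their regions are not printed. MRPL28 and MRPS14, which were called lower, hold none of them either. Only these exact letters were searched, so near matches were not counted in any gene. Among the 70 matched members, 30 hold any of these letters, 42.9%, against 14.4% of protein-coding genes. The choice of regions shown therefore says nothing about letters and the direction of the ratio. MRPL49 has 2 RefSeq promoters and MRPS22 has 3, and the one shown of each was picked for its match.

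MRPL36 (chr5:1799788-1800087, minus strand): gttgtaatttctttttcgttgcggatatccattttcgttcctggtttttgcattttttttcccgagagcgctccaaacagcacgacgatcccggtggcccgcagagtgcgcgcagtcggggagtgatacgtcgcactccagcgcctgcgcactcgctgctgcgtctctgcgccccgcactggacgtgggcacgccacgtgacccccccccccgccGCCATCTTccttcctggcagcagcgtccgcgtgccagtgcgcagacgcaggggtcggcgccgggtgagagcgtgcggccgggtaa
MRPL49 (chr11:65122071-65122370, plus strand): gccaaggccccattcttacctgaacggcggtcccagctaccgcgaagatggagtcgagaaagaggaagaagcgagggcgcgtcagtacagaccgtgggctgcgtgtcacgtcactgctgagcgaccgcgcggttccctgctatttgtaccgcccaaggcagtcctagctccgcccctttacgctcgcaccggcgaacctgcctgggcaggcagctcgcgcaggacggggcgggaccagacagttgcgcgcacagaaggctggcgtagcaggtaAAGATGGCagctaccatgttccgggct
MRPS22 (chr3:139343744-139344043, plus strand): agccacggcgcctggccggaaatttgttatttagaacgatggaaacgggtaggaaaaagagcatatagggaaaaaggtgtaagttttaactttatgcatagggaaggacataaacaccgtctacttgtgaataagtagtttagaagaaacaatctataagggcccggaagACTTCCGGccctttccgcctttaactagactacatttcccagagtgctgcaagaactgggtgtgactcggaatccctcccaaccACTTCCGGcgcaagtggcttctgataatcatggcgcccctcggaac
MRPL28 (chr16:370489-370788, minus strand): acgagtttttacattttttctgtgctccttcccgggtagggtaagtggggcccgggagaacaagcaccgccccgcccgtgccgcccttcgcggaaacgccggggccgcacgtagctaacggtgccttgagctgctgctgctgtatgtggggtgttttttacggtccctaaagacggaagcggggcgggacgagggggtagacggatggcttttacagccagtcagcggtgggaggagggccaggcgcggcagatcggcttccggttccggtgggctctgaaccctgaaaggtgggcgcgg
MRPS14 (chr1:175023376-175023675, minus strand): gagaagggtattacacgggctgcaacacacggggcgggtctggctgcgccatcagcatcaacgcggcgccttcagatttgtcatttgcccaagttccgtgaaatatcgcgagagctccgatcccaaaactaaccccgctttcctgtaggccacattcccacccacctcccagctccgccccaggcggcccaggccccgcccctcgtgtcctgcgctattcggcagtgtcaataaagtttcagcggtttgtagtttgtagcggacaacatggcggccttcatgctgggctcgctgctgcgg

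Whether these letters went with the ratios can be read from the members themselves. The 21 genes with YY1-type letters had a median log2 ratio of -0.03 with 2 higher and 0 lower, and the 49 without had -0.11 with 4 higher and 2 lower. The 12 genes with ETS-type letters had a median of -0.11 and the 58 without -0.05. The 5 with NRF1-type letters had 0.22 and the 65 without -0.10. Ratios of members with YY1-type letters ran from -0.56 to 1.17 on the log2 scale and those of members without from -0.96 to 0.94, so the groups overlapped. Of the factors, YY1 was 1.67-fold higher in SNHG15 cells (62.9 CPM against 37.6 CPM in vector cells), while NRF1 had a ratio of 1.18 and GABPA had 75 counts in each library.

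The ratios of the members went with the base composition and the level of their transcripts. Over the 78 genes the Spearman coefficient of the log2 ratio with transcript GC content was -0.49, with mean CPM -0.44 and with exonic length 0.17. Over all genes compared the coefficients were -0.33, -0.16 and 0.13. All points share the same libraries, so these are descriptions of this pair. In the 26 members of highest GC content, 53.7% to 71.9%, 22 intervals lay below 1 and 2 above under TMM scaling, and the median log2 ratio was -0.31. Of all genes of that GC range, 52.4% lay below 1 and 20.1% above, with a median of -0.21. In the 26 of lowest GC content, 34.96% to 44.6%, 10 lay above 1 and 7 below with a median of -0.001, against 39.01% above and 11.97% below and a median of 0.22 for all genes of that range. The middle 26 had 8 above and 9 below and a median of -0.02, against 35.1% and 24.7% and 0.07.

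With the GC trend of all genes removed, the members had a median log2 ratio of -0.09, with 4 higher and 3 lower, against 11.7% higher and 10.8% lower of all genes compared. The genes still called higher were MRPL36, MRPL1, MRPL49 and MRPL37. MRPL36, MRPL49 and MRPL37 have a GC content of 54.30%, 53.96% and 53.45%, so they stood above genes of like composition. MRPS14 (41.9%) and MRPS30 (37.8%) had ratios under those of most genes of their low GC content. MRPL28, at 62.5%, was the lowest of the GC-rich members.

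**Figure D3:**
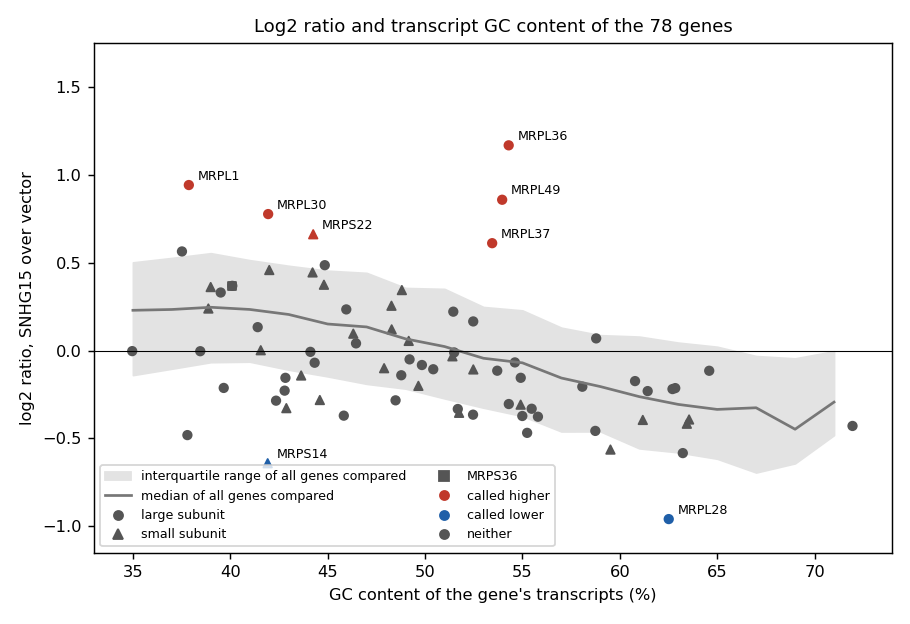
Log2 ratio of the 78 genes, SNHG15 over vector (y axis), against the GC content of their transcripts in percent (x axis); the line and band give the median and interquartile range of all genes compared in bins of GC content. Members follow the downward slope of all genes, MRPL36, MRPL49 and MRPL37 stand above it at 53.4% to 54.3% GC, and MRPS14 and MRPL28 stand below it.

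On some chromosomes the members' ratios lay on the side of the chromosome's other genes, and on others they did not. On chromosome 5, where the median log2 ratio of all genes compared was 0.33, 4 of 5 members had intervals above 1, MRPL36 among them, and MRPS30 lay below. On chromosome 19, with a median of -0.21, 4 of 4 members lay below 1 under TMM scaling, and on chromosome 16, with -0.25, 2 of 2 lay below. The members on these 2 chromosomes have a GC content of 58.7% to 63.6%. Of the 26 members of highest GC content 22 lay below 1, and of all genes of that GC range 52.4% did. Over all genes compared, 31.3% lay below 1 and 30.7% above, and shares per chromosome were not analysed. Chromosome 6 had a median of 0.08, and there 4 of 6 members lay below 1 and 0 above. On chromosome 14, with a median of 0.30, the only member lay below 1, on chromosome 1, with 0.14, 4 members lay above and 4 below, and on chromosome 9, with -0.01, 2 of 3 lay below. Copy number of these cells was not analysed here. Its part in the ratios, and that of GC content on single chromosomes, was not tested.

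Many of these genes share a start region with a gene read in the other direction. Of the 78, 30 had a divergent neighbour starting within 1000 bases, and 27 pairs had both genes compared. In 11 pairs both intervals lay on the same side of 1 under TMM scaling, and in 3 they lay on opposite sides. Among the partners on the same side, PTCD2, PSMA2, PELI3, PPP1R10 and SARS2 overlap the member on the opposite strand. FAU, on the other side of 1 from MRPL49, overlaps it too. Reads of such overlapping pairs cannot be told apart, since strand use in counting is not stated. The share over divergent pairs of all genes was not analysed. The Spearman coefficient of the log2 ratios over the 27 pairs was 0.352, all from the same libraries. Similar values were found for MRPL47 (1.26) and NDUFB5 (1.26), a subunit of complex I, and for MRPS12 (0.677) and SARS2 (0.780), the mitochondrial seryl-tRNA synthetase. MRPS27 (1.30) and PTCD2 (1.91), another pentatricopeptide repeat gene, were both above 1. MRPS34 (0.762) and EME2 (0.325, 30 counts in SNHG15 cells and 107 in vector cells) were both below 1.

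MRPL36 and its neighbour lay on opposite sides of 1. The start of MRPL36 lies 34 bases from that of NDUFS6, a subunit of complex I, which had 2835 counts in SNHG15 cells and 4111 in vector cells, a ratio of 0.798 (0.761 to 0.838), against 2.25 for MRPL36. This distance is between the gene starts in the deposited table, and the RefSeq start of MRPL36 lies further downstream, inside the gene span. MRPL49 (1.81) and FAU (0.665), which start 290 bases apart, and MRPL12 (0.923) and AC139530.1 (1.64, 105 counts in SNHG15 cells and 74 in vector cells) were the other opposite pairs.

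**Figure D4:**
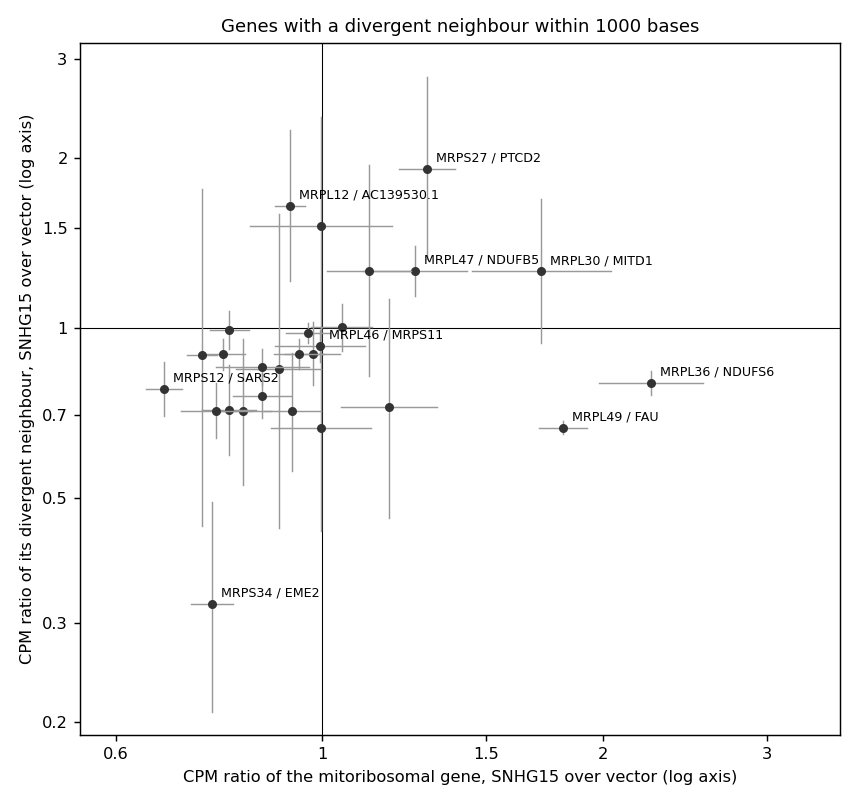
Ratio of each mitochondrial ribosomal protein gene, SNHG15 over vector (x axis, log scale), and of the gene that starts within 1000 bases in the other direction (y axis, log scale), with 95% counting intervals as bars, 27 pairs. In 11 pairs both intervals lie on the same side of 1, while MRPL36 with NDUFS6 and MRPL49 with FAU lie at lower right.

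Counts of some members may hold reads of other loci. A same-strand gene overlaps 14 members and an opposite-strand gene 27, and 34 have a pseudogene of the same name in GENCODE 29. MRPS21 has the most of these, 8, and MRPL36 is not among the 34. The deposited table holds 4 pseudogenes named after members. MRPL36P1 had 3 counts in SNHG15 cells and 8 in vector cells, MRPL3P1 had 9 and 3, MRPL45P2 had 63 and 66, and MRPS31P4 had 46 and 37. MRPS31 itself had 107 counts in SNHG15 cells and 96 in vector cells, so its copy is large beside it. MRPL36 had 710 counts in SNHG15 cells and 365 in vector cells, so the counts of its copy are small beside it. Reads that fit both a gene and its copy may have been split or dropped. This leaves the values of members with copies uncertain, and among these 4 above all MRPS31.

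The other components of the mitochondrial ribosome were set beside the 78 genes. Of 5 ribosomal proteins without an MRP symbol, 0 were called. PTCD3 had a ratio of 1.46, DAP3 of 1.19, CHCHD1 of 1.05, AURKAIP1 of 0.799 and GADD45GIP1 of 0.698. The small-subunit ribosomal RNA MT-RNR1 had 7480 counts in SNHG15 cells and 9456 in vector cells, a ratio of 0.916. The large-subunit ribosomal RNA MT-RNR2 had 26594 counts in SNHG15 cells and 32044 in vector cells, a ratio of 0.961. Of the messengers that this ribosome translates, 7 of 13 were called lower and all 13 intervals lay below 1, with a median log2 ratio of -0.59. Over all genes compared, 12.2% were called lower and 31.3% had intervals below 1. MT-ND3 had a ratio of 0.444 and MT-ND6 of 0.809.

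Of 28 genes for assembly of the mitochondrial ribosome and modification of its RNA, 1 was higher and 4 were lower, with a median log2 ratio of -0.19. Beside this list and those that follow, the same rule called 13.3% of all genes compared higher and 12.2% lower. NGRN, which is needed for the large-subunit RNA, had a ratio of 1.66. The RNA methyltransferases MRM1 (149 counts in SNHG15 cells, 354 in vector cells, ratio 0.487), METTL15 (0.552) and MRM3 (0.638) and the pseudouridine synthase RPUSD4 (0.575) were lower. Of 18 translation factors 2 were higher and 0 lower, with a median of 0.03. The recycling factor GFM2 (1.63) and the release factor MTRF1L (1.74) were called, while the elongation factor TUFM had 724.7 CPM in SNHG15 cells against 1058 CPM in vector cells, a ratio of 0.685. Of 20 aminoacyl-tRNA synthetases HARS2 was higher (1.79) and EARS2 lower (0.652), with a median of -0.08.

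Of 5 mitochondrial transcription genes 0 were called, with a median log2 ratio of -0.04. TFAM, which packs mitochondrial DNA, had a ratio of 1.38 and the RNA polymerase POLRMT 0.681. Of 8 regulators of nuclear genes for mitochondria, YY1 was higher (1.67) and ESRRA, an orphan nuclear receptor, was lower with 42.1 CPM in SNHG15 cells and 94.0 CPM in vector cells, a ratio of 0.448. PPARGC1A had 0 counts in SNHG15 cells and 2 in vector cells and was not compared. The median of the 8 was 0.11.

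The nuclear genes for oxidative phosphorylation and those for the cytosolic ribosome gave other medians. Of 80 oxidative phosphorylation genes 1 was higher and 12 lower, with a median log2 ratio of -0.25, from -2.75 for COX7A1 to 0.89 for NDUFA4L2. Over all genes compared, 13.3% were called higher and 12.2% lower. Of 82 cytosolic ribosomal protein genes 5 were higher and 2 lower, with a median of 0.14, from -0.70 for RPS21 to 1.07 for RPL39. The 78 mitochondrial ribosomal protein genes, with 6 higher, 2 lower and -0.11, lay between these medians. Differences between the lists were not tested.

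**Figure D5:**
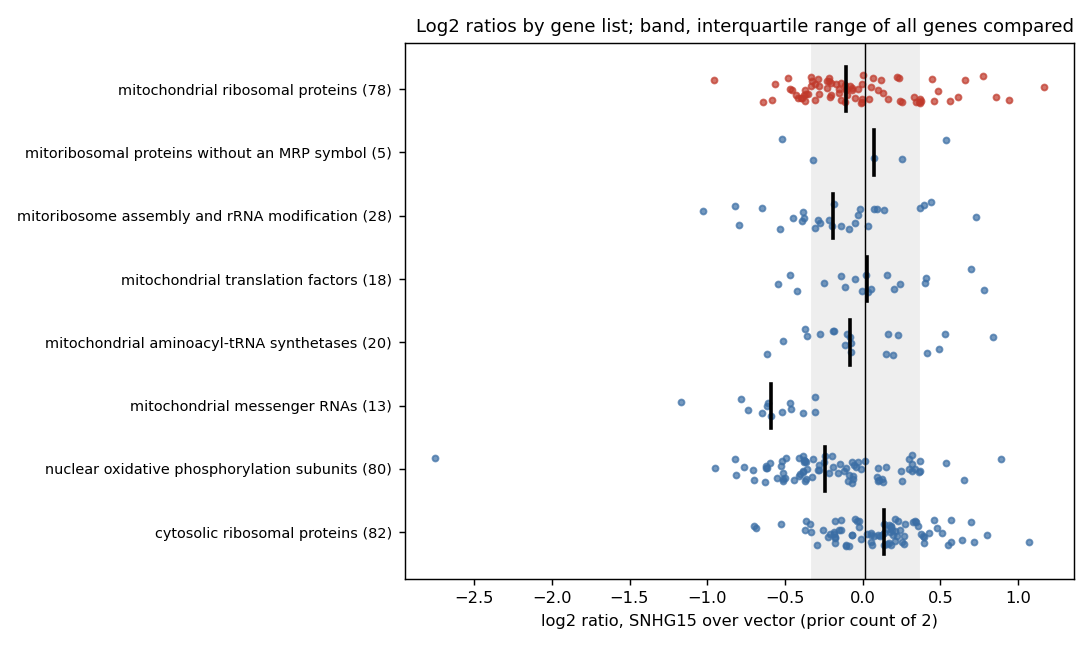
Log2 ratio of SNHG15 over vector (x axis, prior count of 2) for each gene of the lists named at left, 1 point per gene, with list medians as black bars, the number of genes in brackets and the interquartile range of all genes compared as a grey band with their median as a thin line. The median of the 78 genes, -0.11, lies between those of the oxidative phosphorylation genes (-0.25) and the cytosolic ribosomal proteins (0.14), and the mitochondrial messenger RNAs are lowest (-0.59).

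In the authors' deposited table, which calls a gene at 2-fold and an adjusted p below 0.05, 2 members were called up and 0 down, against 4.88% up and 3.27% down of all 19029 genes. These were MRPL36, with a deposited log2 ratio of 1.29 and adjusted p of 8.93e-06, and MRPL1, with 1.09 and 0.0448. Deposited adjusted p-values were below 0.05 for 10 members in the authors' deposited table, 12.8%, against 14.7% of all its genes. The shares of all 19029 genes include those averaging under 1 CPM, while all 78 members averaged 1 CPM or more, so the sets are unlike. These 10 members were the 8 called here together with MRPL4 (0.0381) and MRPS12 (0.0462). MRPL28 had a deposited log2 ratio of -0.84 and adjusted p of 0.000118 in the authors' deposited table. With 1 library per group those p-values rest on an assumed spread, since none can be estimated.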

How the data were processed

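Total RNA of 1 SNHG15-overexpressing and 1 vector BT549 culture was sequenced with Illumina libraries, per the labels' protocols. The build named is hg38, per the submitters' processing notes, while aligner, counter, annotation release and strandedness are not given in the sources used here. Per gene, the authors deposited whole-number counts, FPKM that follow the library totals, log2 ratios of the FPKM, and p-values, from edgeR per the name of the table.

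TMM factors (SNHG15 cells 1.04, vector cells 0.960) were computed from the counts of all genes with edgeR 4.0.16 in R 4.3.3. Genes averaging 1 CPM or more were compared, and their median count was 284 in SNHG15 cells and 315 in vector cells. Ratios had exact conditional-binomial (Clopper-Pearson) 95% intervals (scipy 1.17.1), and log2 ratios a prior count of 2. A floor of 3 counts was 0.174 CPM in SNHG15 cells and 0.150 CPM in vector cells. Reads are not independent molecules, so intervals and floors cover counting error only. The calculation was tested on simulated data. GC content, exonic length and biotype came from GENCODE 29, which matched 18903 of 19029 identifiers, and promoters from RefSeq.

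Members, gene lists and tests were chosen with earlier results of these data known. Named genes were SNHG15, called members, the 5 highest and 5 lowest ratios of each subunit, the 5 highest and 5 lowest by FPKM, the position groups and S18 relatives, and the ends of each other list; overlapping and divergent neighbours and other list genes were named after their values were seen. Promoters of MRPL10, MRPL13, MRPL15, MRPL2, MRPL21, MRPL23, MRPL35 and MRPS28 were not analysed here. ESR1, PGR, EPCAM and the blood and vessel markers looked up had no row in the deposited table. The alternatives tried were DESeq2 1.42.0 size factors, library totals, other filters (none, or 5 CPM), thinning to equal depth, other prior counts, FPKM with a pseudocount of 0.1, removal of GC and length trends, centring on chromosomes or on the 40 nearest genes, dropping overlapping members, protein-coding genes only, and other call rules.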

Additional observations from a re-analysis of the deposited data

How the results depend on the processing

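The median log2 ratio of the members moved by less than 0.126, the half-width of a median counting interval, in each of its 16 alternatives, but its sign was positive, at 0.01, with library totals and with FPKM. The members' median minus that of all genes compared moved by less than that in each of its 14 alternatives. That half-width is larger than both values under TMM scaling, -0.107 and -0.123, so staying within it does not show that either was kept. The difference ran from -0.143 without a filter to -0.042 with ratios centred on neighbouring genes. It was -0.068 with the length trend removed and -0.071 with chromosome medians subtracted. The number of genes called lower, 2 under TMM scaling, was 4 with DESeq2 size factors and with chromosome medians subtracted, and 1 with library totals and with FPKM. With the whole interval beyond 2-fold, 0 genes were higher and 0 lower, and with the interval excluding 1 at any fold, 20 were higher and 38 lower. With a fold of 1.25, added after seeing the data, 15 were higher and 19 lower. The summed-level ratio, 0.911, was 0.885 with DESeq2 size factors, 0.987 with library totals, 0.962 with FPKM, 0.966 with the GC trend removed, 0.946 with the length trend removed, 0.959 with ratios centred on neighbouring genes and, added after seeing the data, 0.872 without MRPL37. It stayed below 1 in each of these. The summed-level ratio of the mitochondria-specific genes, 1.03, was 0.922 without MRPL37, also added after seeing the data. The cause of these shifts was not tested. The prior count does not enter counts of calls or sums. No paired analysis was possible because each group has 1 library, which also left no library to leave out. Depth limits MRPL1 most: its 73 counts in SNHG15 cells and 43 in vector cells allow ratios from 1.33 to 2.94.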
